A study of Mus musculus with 12 samples.

Results

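The response of the liver was set against that of the small intestine in male C57BL6/J mice given corticosterone (CORT), the main glucocorticoid of rodents, or vehicle (Veh). The question was which genes responded alike in both tissues, which responded in the liver or in the intestine only, and which moved in opposite directions. All 12 RNA-seq libraries of the study entered, 3 from each of liver Veh, liver CORT, intestine Veh and intestine CORT. CORT groups received 40 mg/kg each day by subcutaneous injection for 8 weeks from an age of 8 weeks, and Veh groups received the same solvent (DMSO, Tween-80 and water) on the same schedule. The intestine pieces were duodenum, the labels number the libraries as biological replicates but do not say whether a liver and an intestine of the same number came from 1 mouse, and no allele other than the strain's own was named. Of the 55416 genes listed, the 14806 with a mean of 1 TPM (transcript abundance scaled for gene length and library total) or more in at least 1 of the 4 groups were tested. The gene just inside that limit, Kazald1, had a highest group mean of 1 TPM, and the gene just outside, Gm29668, had 0.997 TPM. Of the tested genes, 10500 reached the limit in both tissues, 1199 in the liver alone and 3107 in the intestine alone.

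Corticosterone enters cells and binds the glucocorticoid receptor, which moves to the nucleus and acts on DNA at glucocorticoid response elements or through other transcription factors. Co-chaperones and feedback genes that the receptor switches on are found in most tissues, whereas metabolic targets depend on the chromatin and partner factors of each cell type. The liver answers glucocorticoids with glucose output, lipid storage and acute phase secretion. The duodenal epithelium is known for changes in nutrient uptake and barrier genes.

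In the liver, 1286 genes passed the test of CORT against Veh, which was 8.69% of the genes tested, with 874 higher (5.9%) and 412 lower (2.78%). In the intestine, 661 passed (4.46%), with 329 higher (2.22%) and 332 lower (2.24%). To pass, a gene had to reach 0.05 or below for limma's adjusted p and to differ more than 1.5-fold, as read from log2(TPM + 1). The treatment by tissue term, which is the log2 change in the liver minus the log2 change in the intestine and so the test of a difference between the tissues, passed for 533 genes (3.6%). It was higher in the liver direction for 340 (2.3%) and lower for 193 (1.3%). Of the 533 genes, 326 reached 1 TPM in both tissues, as did 10500 of the 14806 genes tested. With libraries rescaled by median ratios within each tissue, 51.1% in place of 63.8% of the genes passing the term were higher, and 56.3% in place of 68% of those passing in the liver. In the intestine, the share higher among the genes passing was 49.8%, and it was 65% with 1 TPM required in each tissue and 39.4% without intestine Veh replicates 2 and 3. With each tissue fitted on its own, 810 genes passed in the liver and 292 in the intestine, where each tissue had its own estimate of the spread from 6 libraries.

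The tissue labels held up against the markers. Hepatocyte markers summed to between 128195 and 155864 TPM in the liver libraries and to between 220 and 258 TPM in the intestine libraries. Pancreatic acinar markers summed to 50261 and 44872 TPM in intestine Veh replicates 2 and 3, against 8407 TPM in replicate 1 and 9020 to 10811 TPM in the CORT libraries. In the intestine 9 of 33 passed as lower with CORT, and the median log2 change was −5.16, with 2 of 33 above 0. The 9 stayed lower in direction with intestine Veh replicate 1 as the only control. The sums therefore do not show replicate 1 to be like the CORT libraries for these genes. None of the acinar markers (0 of 33) fell in any of the classes described next. Goblet cell markers summed to 347 TPM in liver Veh replicate 2 and to 425 TPM in liver CORT replicate 3, against 21.9 to 66.3 TPM in the other liver libraries. Endothelial markers summed to 31.7 to 74.1 TPM in liver Veh and to 95.1 to 107 TPM in liver CORT, with 6 of 8 higher. Red blood cell markers summed to 119 to 247 TPM in intestine Veh and to 366 to 707 TPM in intestine CORT. Enterocyte markers summed to 27298 to 40958 TPM in intestine Veh and to 44142 to 53053 TPM in intestine CORT. Of these 12 markers, 7 had a change above 0 there and 0 were called. Of 9 smooth muscle markers, 0 had a change above 0 in the intestine (median log2 change −0.63) and 0 were called. With the acinar genes removed and libraries rescaled, 700 genes passed in the intestine, with 635 of the 661 kept. The term then passed for 562 genes, with 515 of the 533 kept. Beyond this rescaling, the part of these cell types in the results was not tested. Fewer cells of a type cannot be told apart from less RNA per cell.

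Leaving out intestine Veh replicates 2 and 3 together kept only replicate 1 as intestine control, and fewer genes then passed the term and the intestine test. Fewer libraries alone can end a call in that fit, here or below, so such a loss does not show dependence on those 2 libraries. Few genes were called in both tissues. Of 119 such genes, 87 were higher in both (0.588% of the genes tested), 24 were lower in both (0.162%) and 8 went in opposite directions. The 111 that shared a direction were 8.63% of the liver calls and 16.8% of the intestine calls. Direction alone was shared by 66.1% of the genes called in the liver and by 64.8% of those called in the intestine, beside 8304 of the 14806 tested. Among all genes expressed in both tissues, called or not, the share was 60.8%. Across those 10500 genes the log2 changes of the tissues had a Pearson correlation of 0.308, which is a description, since genes are not replicates. A call in the liver without a call in the intestine was not a difference by itself: of 1167 such genes, 849 did not pass the treatment by tissue term, and of 542 genes called in the intestine but not in the liver, 373 did not pass it.

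**Figure D1:**
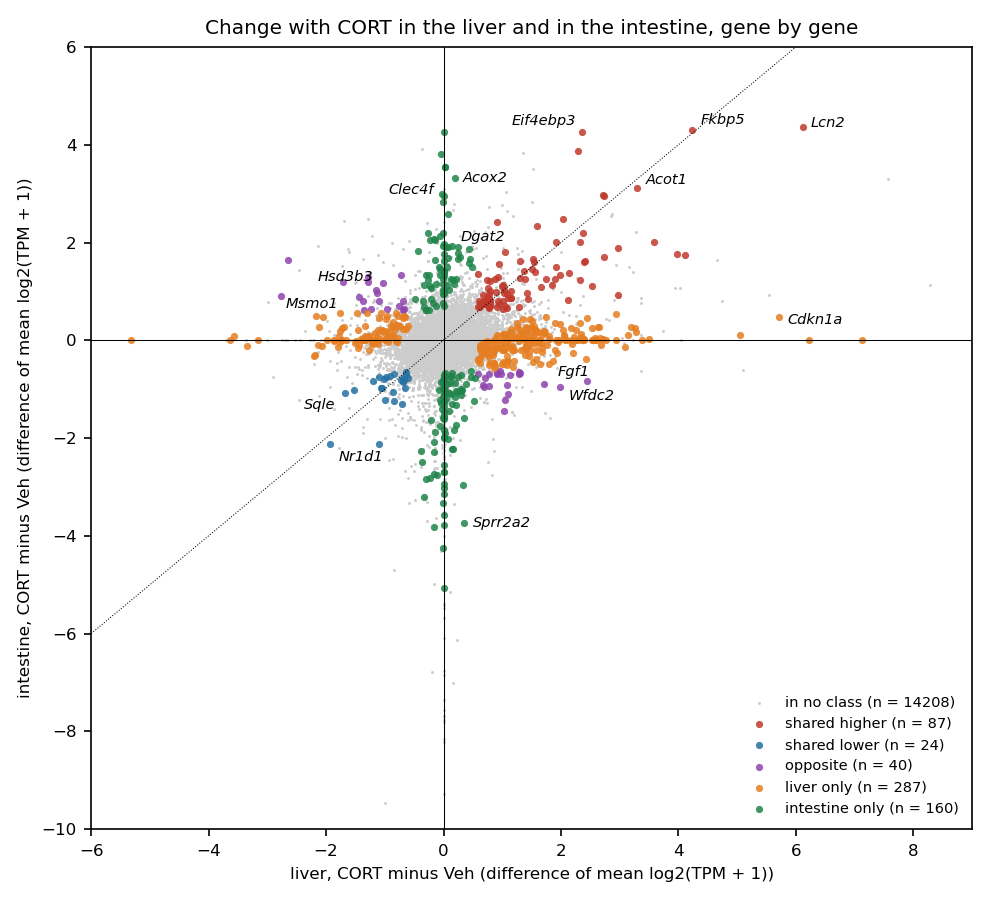
Each point is 1 of the 14806 genes, with the liver change on the x axis and the intestine change on the y axis, both as the difference between CORT and Veh of mean log2(TPM + 1), and the dotted line marks equal change. The 87 genes higher in both tissues lie in the upper right with Fkbp5 on the line, while the liver-only (287) and intestine-only (160) genes lie along the axes.

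Promoters of 6 genes are shown to let the letters be set beside the responses, for genes that rose in both tissues and for interferon-related genes whose changes had opposite signs. The windows run from 250 bases before to 50 bases after the start of each gene in RefSeq annotation of build GRCm38.p6, an earlier build than the GRCm39 used for the deposited values. The first set holds ACANNNTGT, the spaced core of the glucocorticoid response element, read on both strands and shown in capitals. This motif was present in 6.85% of all 32851 windows and in 5.54% of the tested genes with a window. Among the 87 genes higher in both tissues, 74 had a window and 12 of these (16.2%) held the motif, compared with 17 of 202 liver-only genes (8.42%), 5 of 94 intestine-only genes (5.32%) and 0 of 19 genes lower in both. The 4 shown belong to Lcn2, Nrg4, Acot1 and Cyp3a11, which rose in both tissues and are described next. They were picked for their roles after the motif search.
Lcn2, chr2:32387690-32387989, minus strand: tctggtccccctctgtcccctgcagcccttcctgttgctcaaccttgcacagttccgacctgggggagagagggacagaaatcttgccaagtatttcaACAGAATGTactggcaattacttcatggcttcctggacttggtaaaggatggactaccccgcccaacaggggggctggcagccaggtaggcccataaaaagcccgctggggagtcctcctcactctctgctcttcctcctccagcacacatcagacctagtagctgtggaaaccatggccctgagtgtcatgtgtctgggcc
Nrg4, chr9:55283576-55283875, minus strand: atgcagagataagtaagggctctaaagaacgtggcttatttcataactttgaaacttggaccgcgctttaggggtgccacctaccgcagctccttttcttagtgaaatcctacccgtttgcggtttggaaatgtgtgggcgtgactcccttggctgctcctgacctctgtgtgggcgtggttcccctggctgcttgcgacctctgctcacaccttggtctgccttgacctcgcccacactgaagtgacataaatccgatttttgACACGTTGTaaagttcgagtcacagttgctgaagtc
Acot1, chr12:84009252-84009551, plus strand: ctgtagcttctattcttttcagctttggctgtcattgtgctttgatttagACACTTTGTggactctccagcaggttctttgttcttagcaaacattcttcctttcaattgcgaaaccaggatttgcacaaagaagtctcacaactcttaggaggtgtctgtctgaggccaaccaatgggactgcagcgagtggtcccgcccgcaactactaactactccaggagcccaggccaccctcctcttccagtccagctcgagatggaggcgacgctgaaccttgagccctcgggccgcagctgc
Cyp3a11, chr5:145879805-145880104, minus strand: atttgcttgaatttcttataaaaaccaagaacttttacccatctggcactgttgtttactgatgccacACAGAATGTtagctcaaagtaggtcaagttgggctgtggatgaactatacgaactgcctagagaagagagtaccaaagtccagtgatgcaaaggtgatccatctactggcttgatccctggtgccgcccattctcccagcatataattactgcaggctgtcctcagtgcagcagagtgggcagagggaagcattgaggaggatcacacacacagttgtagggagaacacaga

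In these windows the motif began 152 bases before the start of Lcn2, 200 before that of Acot1 and 182 before that of Cyp3a11, whereas in Nrg4 it began 14 bases after the start. Fkbp5 and Cry1, also higher in both tissues, lacked it in their windows and held the E-box CACGTG, which was in 11 of the 74 genes (14.9%), in 11.2% of the tested genes and in 7.15% of all windows. A match in a window is a description of letters and not a binding site.

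The second set holds GAAANNGAAA, the core of the interferon response element, on either strand. It was in 3.44% of all windows, in 19 of the 28 interferon-stimulated genes of the list with a window (67.9%), in 1 of 74 genes higher in both tissues, in 3 of 19 genes lower in both and in 3 of 25 genes with opposite changes, namely Apol9a, Apol9b and Ifit1. Windows of Ifit1 and Apol9b are shown because Apol9b passed as lower with CORT in the liver, and both genes passed the term with opposite signs in the tissues, although Ifit1 did not pass in the liver by itself. In both windows the match lay on the reverse strand, and in Apol9b 2 matches overlapped.
Ifit1, chr19:34640639-34640938, plus strand: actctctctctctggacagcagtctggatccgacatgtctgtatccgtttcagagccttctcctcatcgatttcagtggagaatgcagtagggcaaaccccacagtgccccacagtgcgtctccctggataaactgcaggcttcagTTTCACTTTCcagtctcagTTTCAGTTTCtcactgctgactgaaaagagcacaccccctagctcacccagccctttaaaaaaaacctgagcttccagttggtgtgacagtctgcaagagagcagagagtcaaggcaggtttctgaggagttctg
Apol9b, chr15:77728822-77729121, plus strand: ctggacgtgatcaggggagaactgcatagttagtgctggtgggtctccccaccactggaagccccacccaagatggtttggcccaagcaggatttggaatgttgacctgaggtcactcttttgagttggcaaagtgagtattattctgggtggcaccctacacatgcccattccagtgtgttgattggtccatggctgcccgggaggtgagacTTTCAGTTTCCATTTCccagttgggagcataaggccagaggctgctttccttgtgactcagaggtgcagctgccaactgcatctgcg

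Fkbp5, the co-chaperone that lowers the affinity of the glucocorticoid receptor for its ligand, passed as higher in both tissues. In liver Veh it was at 7.14, 12.7 and 19.5 TPM and in liver CORT at 273, 249 and 221 TPM. In intestine Veh it was at 14, 8.68 and 23.3 TPM and in intestine CORT at 379, 281 and 252 TPM. The groups were far apart in both tissues, and every CORT library was above 200 TPM. The log2 change was 4.23 ± 0.36 (SE) in the liver (adjusted p = 6.35e-05) and 4.3 ± 0.36 in the intestine (adjusted p = 0.000105). The difference between the tissues was −0.07, with a 95% interval from −1.18 to 1.05, wider than the limit of 1 log2 unit either way used for calling sizes alike.

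Lcn2, a secreted lipocalin that binds bacterial siderophores, rose from a different base in each tissue. It was at 111, 14.3 and 16.1 TPM in liver Veh and at 1119, 3206 and 2728 TPM in liver CORT. In the intestine it was at 2.49, 1.12 and 2.58 TPM in Veh and at 55.7, 75.5 and 51.8 TPM in CORT. All CORT libraries stood above all Veh libraries of their tissue, and liver Veh replicate 1 was well above the other 2 liver controls. The log2 changes were 6.12 ± 0.66 and 4.36 ± 0.66 (adjusted p = 0.000271 and 0.00421). The intestine call was lost without intestine Veh replicates 2 and 3 (adjusted p = 0.0945).

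Acot1, a thioesterase that frees fatty acids from coenzyme A, rose by 3.3 ± 0.43 on the log2 scale in the liver and by 3.11 ± 0.43 in the intestine (adjusted p = 0.00089 and 0.00277). Its liver values went from 3.77, 9.72 and 7.53 TPM to 135, 62.3 and 47.5 TPM. Its intestine values went from 6.57, 7.79 and 6.92 TPM to 59.9, 45 and 120 TPM. The CORT libraries varied more than the controls in each tissue but did not overlap them, and the difference between tissues had an interval from −1.16 to 1.53. The intestine call was lost without intestine Veh replicates 2 and 3 (adjusted p = 0.0571).

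Nrg4, an EGF-family ligand of ErbB4, was 1 of the 47 shared higher genes counted as alike in size. It was at 7.88, 11.1 and 10.7 TPM in liver Veh against 51.7, 45.6 and 64.3 TPM in liver CORT, and at 4.6, 3.99 and 4.07 TPM in intestine Veh against 18.6, 19.2 and 22.1 TPM in intestine CORT. The log2 changes of 2.33 and 2 differed by 0.33, with an interval from −0.16 to 0.82 that lay within 1 log2 unit either way, the rule for counting sizes as alike.

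The other leading shared genes act in transcription, translation, trafficking and lipid storage. Zbtb16, a zinc finger repressor, changed by 2.74 in the liver and by 2.94 in the intestine on the log2 scale. Eif4ebp3, which binds the cap factor eIF4E and holds back translation, changed by 2.37 and 4.27, and Rab30, a GTPase of the Golgi, by 2.28 and 3.86. For Eif4ebp3 and Rab30 the interval of the difference lay below 0 (−3.38 to −0.43 and −2.96 to −0.20), but the adjusted p of the term was 0.158 and 0.212. Fmo2, a flavin monooxygenase, changed by 2.38 and 2.19, and G0s2, an inhibitor of the lipase that opens lipid droplets, by 2.03 and 2.48. The intestine call of G0s2 was lost without intestine Veh replicates 2 and 3 (adjusted p = 0.0545). By Euclidean distance over both log2 changes, the genes nearest Fkbp5 among those called in both tissues were Acot1 (1.51), Eif4ebp3 (1.87), Lcn2 (1.88), Rab30 (2) and Gm15889 (2.01).

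Of the 87 genes higher in both tissues, 47 were alike in size, 5 were unequal (the treatment by tissue term passed) and 35 were unresolved. Groups did not overlap in either tissue for all 87, beside 7.87% of the genes tested, but the calls that define the class rest on the same libraries and nothing is read from that. The unequal genes were Chd9, Cyp27a1, Pex11a, Plin4 and Serinc3. Plin4, a coat protein of lipid droplets, was at 0.23, 0.72 and 0.46 TPM in liver Veh and at 10.9, 12.1 and 8.6 TPM in liver CORT, but went only from 1.01, 0.9 and 0.47 TPM to 2.82, 1.43 and 3.1 TPM in the intestine. Its term was 2.05 (adjusted p = 0.00671), and its intestine call was lost without intestine Veh replicate 3 (adjusted p = 0.145). Cyp27a1, the mitochondrial sterol 27-hydroxylase, leaned the other way, with log2 changes of 0.92 in the liver and 2.42 in the intestine, and its term had an adjusted p of 0.0493 that rose to 0.111 without liver Veh replicate 3. The terms of Chd9 and Pex11a likewise reached 0.0638 without intestine Veh replicate 3 and 0.102 without liver CORT replicate 1, while those of Plin4 and Serinc3 passed in each fit that left out 1 library. The intestine calls of Pex11a and Serinc3 were lost without intestine Veh replicate 2 (0.0867 and 0.0689), and the liver call of Cyp27a1 without liver CORT replicate 1 (0.139). Fitted tissue by tissue, 52 genes were higher in both, 48 of them among the 87; without intestine Veh replicates 2 and 3, 22 were.

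**Figure D2:**
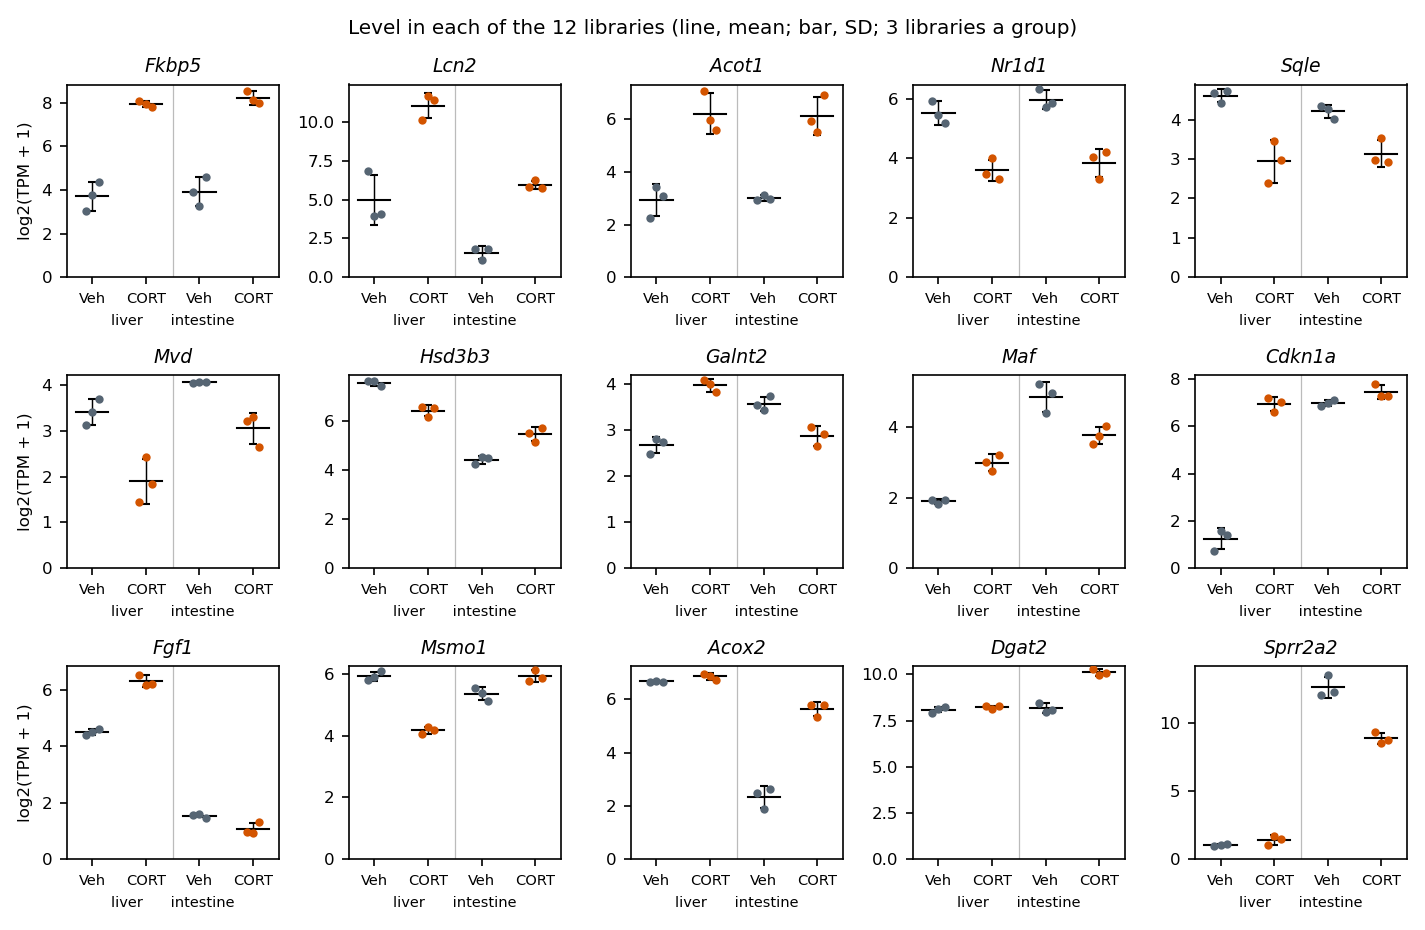
Levels of 15 genes as log2(TPM + 1) on the y axis in the 3 libraries of each group, liver to the left and intestine to the right in each panel, with lines for means and bars for SD. Fkbp5, Lcn2 and Acot1 were higher and Nr1d1, Sqle and Mvd lower with CORT in both tissues, Hsd3b3, Galnt2 and Maf moved in opposite directions, and the last 6 genes passed the test in the liver or in the intestine only.

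Among 24 genes lower in both tissues, 18 were alike in size and 6 unresolved. Nr1d1, which encodes the clock repressor REV-ERB alpha, fell most. It was at 61, 43 and 35.5 TPM in liver Veh and at 10.2, 15.1 and 8.98 TPM in liver CORT. In intestine Veh it was at 80.1, 51.9 and 57.9 TPM and in intestine CORT at 15.4, 8.97 and 17.4 TPM. The ranges did not meet in either tissue, with log2 changes of −1.93 ± 0.28 and −2.13 ± 0.28 (adjusted p = 0.0018 and 0.0021), and both calls held in each fit that left out 1 library.

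Among the gene lists, cholesterol synthesis had the most members in this class, with 4 of the 24 genes. Sqle, the squalene epoxidase, was at 24.8, 20.7 and 25.6 TPM in liver Veh and at 4.23, 10.1 and 6.95 TPM in liver CORT, and at 19.4, 18.3 and 15.4 TPM in intestine Veh and at 6.93, 10.5 and 6.57 TPM in intestine CORT. Its change was −1.67 in the liver and −1.07 in the intestine (adjusted p = 0.00213 and 0.035). The libraries were apart in both tissues. The intestine call held in 5 of the 12 fits leaving out 1 library and reached an adjusted p of 0.105 without intestine CORT replicate 3. Over these fits the intestine change stayed between −1.26 and −0.96. Mvd, which makes isopentenyl diphosphate from mevalonate, changed by −1.52 and −1.01, and Fdft1 and Dhcr7 were the other sterol enzymes in this class. The intestine call of Mvd was lost without intestine CORT replicate 3 (adjusted p = 0.127), that of Fdft1 without intestine Veh replicate 2 (0.0818), and the liver call of Dhcr7 without liver CORT replicate 1 (0.136).

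Further genes lower in both were Nr3c2, the mineralocorticoid receptor (−0.86 and −1.06), Akr1c14, a hydroxysteroid dehydrogenase (−1 and −1.23), Vamp5, a vesicle SNARE (−1.07 and −0.98), and Psmb9, a subunit of the immunoproteasome (−0.84 and −1.23). Iglv1, a light chain variable segment, was at 872 to 1466 TPM in intestine Veh and at 178 to 367 TPM in intestine CORT but at most 2.34 TPM in any liver library, and its liver call (adjusted p = 0.0488) was lost without liver CORT replicate 1 (adjusted p = 0.161). The liver call of Akr1c14 was lost without liver Veh replicate 3 (0.11) and the intestine call of Vamp5 without intestine CORT replicate 2 (0.0717). Without intestine Veh replicates 2 and 3, the intestine calls of Nr3c2 (0.102), Psmb9 (0.0597), Akr1c14 (0.389), Vamp5 (0.0945) and Iglv1 (0.119) were lost. Fitted tissue by tissue, 7 of the 24 genes were lower in both.

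Opposite changes were seen for 40 genes (0.27% of the genes tested), which passed the treatment by tissue term and showed in each tissue a change of more than 1.5-fold with an unadjusted p not above 0.05. Of these, 21 were higher in the liver and 19 lower there, and 34 had groups that did not overlap in either tissue, a property of the same libraries that chose them. They included 3 steroid enzymes. Hsd3b3, a 3-beta-hydroxysteroid dehydrogenase, was at 202, 200 and 173 TPM in liver Veh and at 94.9, 72.3 and 92.3 TPM in liver CORT. In intestine Veh it was at 18, 22.1 and 22 TPM and in intestine CORT at 45.5, 34.7 and 51.8 TPM. It fell by 1.14 ± 0.16 in the liver and rose by 1.04 ± 0.16 in the intestine on the log2 scale (adjusted p = 0.00161 and 0.0054), and the term was −2.18 (95% interval −2.69 to −1.67, adjusted p = 0.000819). All 3 calls held under each alternative tried.

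Hsd3b2, a close relative whose reads may be shared with Hsd3b3, was at 14.7, 22.5 and 13 TPM in liver Veh, 7.13, 3.45 and 6.15 TPM in liver CORT, 1.13, 0.78 and 0.69 TPM in intestine Veh and 2, 2.55 and 2.87 TPM in intestine CORT. Its term passed (adjusted p = 0.00537) but not without intestine Veh replicates 2 and 3 (adjusted p = 0.0621). Srd5a2, a steroid 5-alpha-reductase, was lower in the liver (1.48 ± 0.65 to 0.46 ± 0.13 TPM, SD, n = 3) and higher in the intestine (0.72 ± 0.11 to 3.31 ± 0.28 TPM). Its term was −2.06 (adjusted p = 0.00213), while its liver call (adjusted p = 0.0293) was lost without liver CORT replicate 1 (adjusted p = 0.0893).

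Interferon-related genes made up a second set with lower liver and higher intestine values. Ifit1, which binds foreign RNA, was at 2.16, 2.53 and 2.04 TPM in liver Veh and at 0.5, 0.7 and 0.58 TPM in liver CORT, against 10.8, 34.2 and 20 TPM in intestine Veh and 35.7, 39.7 and 66.2 TPM in intestine CORT. The intestine groups came close to each other at Veh replicate 2. Its term was −2.2 (adjusted p = 0.0309), and the adjusted p was 0.0723 without liver CORT replicate 1. Neither tissue passed by itself (adjusted p = 0.0793 and 0.0747). Irf9, a subunit of the interferon-activated factor ISGF3, had a term of −1.46 (adjusted p = 0.0119), which passed in each fit leaving out 1 library. Apol9b and Apol9a, near-identical apolipoprotein L genes outside the interferon list and named after their values were seen, had terms of −4.29 and −3.68 (adjusted p = 0.00474 and 0.00626). Apol9b was at 71.4, 104 and 66.5 TPM in liver Veh and at 9.52, 8.36 and 19.8 TPM in liver CORT, against 12, 31.8 and 15.8 TPM in intestine Veh and 46.8, 40.2 and 109 TPM in intestine CORT.

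In the other direction, Galnt2, an enzyme that starts mucin-type O-glycosylation, was at 4.55, 5.97 and 5.63 TPM in liver Veh and at 15.8, 15 and 13 TPM in liver CORT, but at 10.6, 9.79 and 12.3 TPM in intestine Veh and at 7.37, 5.23 and 6.46 TPM in intestine CORT. The term was 1.99 (adjusted p = 0.000819), and the intestine call was lost without intestine Veh replicate 3 (adjusted p = 0.0916). Maf, a bZIP transcription factor, was at 2.84, 2.53 and 2.82 TPM in liver Veh and at 7.06, 5.74 and 8.33 TPM in liver CORT, against 36.6, 20 and 30.6 TPM in intestine Veh and 10.6, 12.5 and 15.3 TPM in intestine CORT. Its changes were 1.1 and −1.1, with the intestine call lost without intestine Veh replicate 3 (adjusted p = 0.0558). Uhrf1, which guides DNA methylation after replication, stayed under 1 TPM in each liver library (0.07 to 0.93 TPM) and was lower in the intestine, from 15, 13.8 and 13.4 TPM to 7.5, 7.08 and 5.9 TPM. Wfdc2, a secreted protein of the whey acidic family, Cnnm2, which takes part in magnesium transport, and Plpp1, a lipid phosphate phosphatase, had terms of 2.95, 1.84 and 1.94. The intestine call of Cnnm2 was lost without intestine CORT replicate 2 (adjusted p = 0.138).

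Only 8 genes passed the full test in both tissues with opposite signs: Uhrf1, Acsl3, Srd5a2, Maf, Hsd3b3, Cnnm2, Galnt2 and A730063M14Rik. The calls of Acsl3 were lost without intestine CORT replicate 2 in the intestine (adjusted p = 0.133) and without liver CORT replicate 1 in the liver (0.0675), and the liver call of A730063M14Rik without liver CORT replicate 3 (0.124). Fitted tissue by tissue, 1 of the 8 kept that property. Of the 40 genes of the wider rule, 33 remained, with the term still taken from the joint fit.

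**Figure D3:**
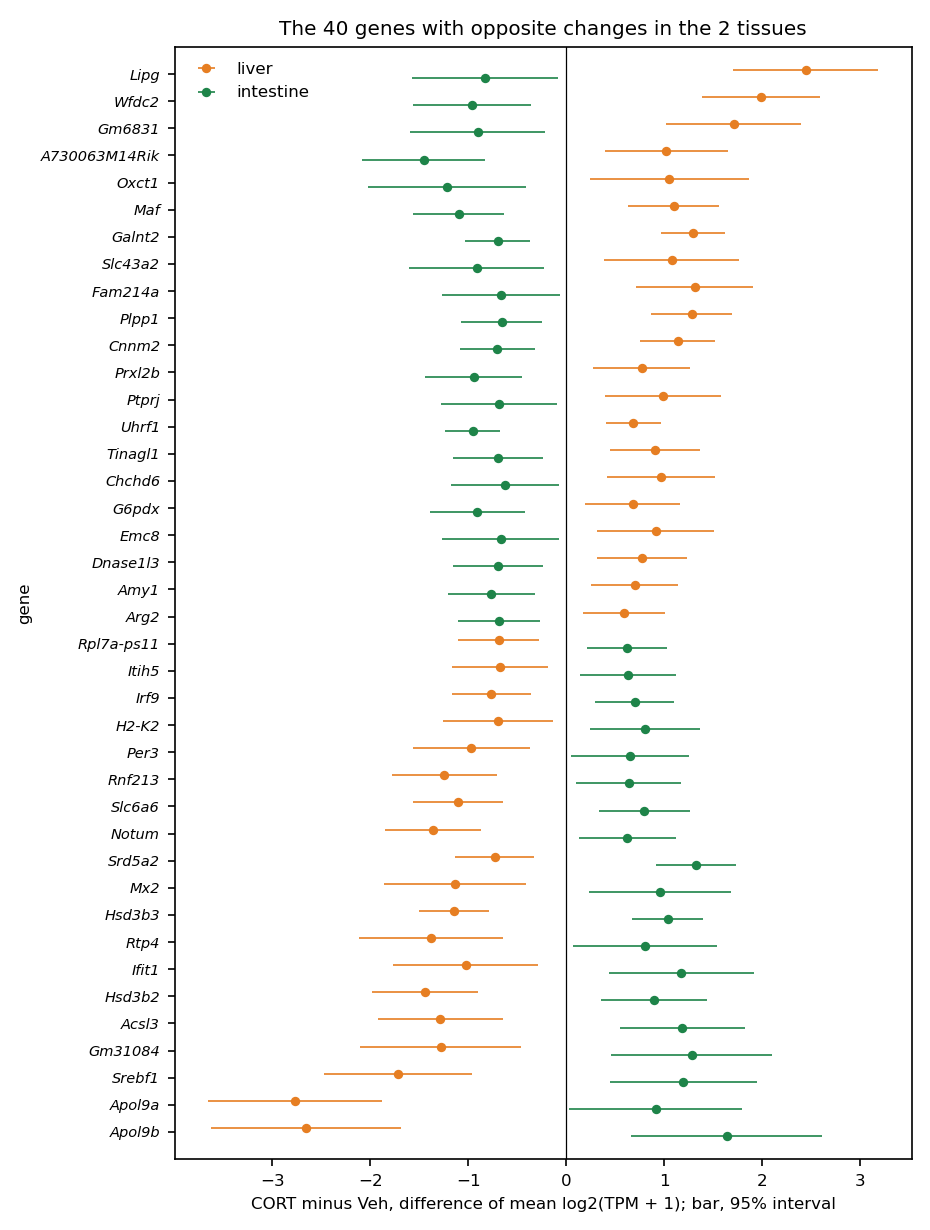
The 40 genes with opposite changes, 1 a row, with the difference between CORT and Veh of mean log2(TPM + 1) on the x axis in liver (orange) and intestine (green) and bars for 95% intervals. The 19 genes lower in the liver, at the bottom, include Apol9b, Apol9a, Srebf1, Acsl3, Ifit1 and the steroid enzymes, and the 21 higher in the liver, at the top, include Wfdc2, Maf and Galnt2.

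Responses of the liver only were counted for 287 genes (1.94%), which passed in the liver and for the term and changed by 1.5-fold or less in the intestine without a call there. Of these, 199 were higher and 88 lower, and 196 reached 1 TPM in the intestine (136 higher, 60 lower). Cdkn1a, the cyclin-dependent kinase inhibitor p21, had the smallest p for the term among the named genes of the class that reached 1 TPM in both tissues. It was at 0.66, 2 and 1.65 TPM in liver Veh and at 147, 98.1 and 130 TPM in liver CORT, which took the liver to the level of the untreated intestine. In the intestine it was at 117, 127 and 137 TPM in Veh and at 223, 154 and 158 TPM in CORT. The intestine groups did not overlap either, but the change there was 0.47 ± 0.23 (adjusted p = 0.294), against 5.72 ± 0.23 in the liver (adjusted p = 4.11e-07), and the term was 5.25 with an interval from 4.53 to 5.97 (adjusted p = 2.84e-05).

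Fgf1, a fibroblast growth factor with effects on glucose control, was at 20.4, 21.7 and 23.3 TPM in liver Veh and at 92.6, 70.8 and 72.8 TPM in liver CORT. In the intestine it was at 1.96, 2.03 and 1.77 TPM in Veh and at 0.97, 0.89 and 1.48 TPM in CORT. The intestine libraries also did not overlap, with CORT below Veh, but the change of −0.48 ± 0.14 did not pass (adjusted p = 0.0865). The intestine means of 1.92 TPM in Veh and 1.11 TPM in CORT lay near the 1 TPM added before taking log2, which makes a change smaller. The place of Fgf1 in the liver-only class depends on that choice. With 0.1 TPM added in place of 1 TPM, its fall in the intestine is more than 1.5-fold, which is outside the rule for that class. The liver change was 1.8 ± 0.14 (adjusted p = 4.66e-05) and the term 2.27 (interval 1.83 to 2.72, adjusted p = 0.000222), both passing in each of the alternatives tried. Fgf21, its endocrine relative, went from 1.48 to 27.9 TPM in the liver and was listed at 0 in all intestine CORT libraries. It did not meet the rule for liver only, and its term (adjusted p = 0.0455) was lost without liver CORT replicate 1 (adjusted p = 0.102).

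Msmo1, a sterol methyl oxidase, split from the sterol enzymes that fell in both tissues. It was at 54.7, 59.7 and 67.3 TPM in liver Veh and at 15.7, 18.6 and 17.2 TPM in liver CORT, but at 46.3, 40.7 and 34.2 TPM in intestine Veh and at 53.8, 69.8 and 57.3 TPM in intestine CORT. The liver change was −1.76, the intestine change 0.57 (adjusted p = 0.0502, with a fold under the limit), and the term −2.33 (adjusted p = 0.000222). The groups were apart in both tissues and lay in opposite order.

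Other genes higher in the liver only were Aifm2, an oxidoreductase that guards against lipid peroxidation, Trp53inp2, which takes part in autophagy, and Tacc2, a centrosomal protein, with terms of 2.28, 1.78 and 2.27. Lower in the liver only were Apol7a, Nrp1, a co-receptor for semaphorins and VEGF, Ncald, a neuronal calcium sensor, and Dclk3, a kinase, with terms of −2.52, −1.44, −1.68 and −1.95. None of the 10 genes named for this class lost its liver call or its term in any of the 12 fits leaving out 1 library. Without intestine Veh replicates 2 and 3 the class held 93 genes, and without intestine Veh replicate 3 alone it held 163. Enterocyte markers summed to between 222 and 351 TPM in liver Veh and to between 689 and 4021 TPM in liver CORT. Of the 12 markers, 1 was called higher and 4 had a change above 0, with a median change of 0, so the sums do not describe most of them. Their part in the liver results was not tested.

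Responses of the intestine only were counted for 160 genes (1.08%), 71 higher and 89 lower. For 109 of them the liver stayed under 1 TPM, so the comparison at measurable levels covers 51 (32 higher, 19 lower). Acox2, the peroxisomal oxidase of branched-chain and bile acid intermediates, was at 4.56, 2.66 and 5.2 TPM in intestine Veh and at 54.6, 39.4 and 54.4 TPM in intestine CORT. In the liver it was at 99.5, 103 and 101 TPM in Veh and at 124, 117 and 105 TPM in CORT. The liver libraries were high throughout, with CORT only just above Veh, and moved by 0.19, while the intestine change was 3.32 ± 0.19 (adjusted p = 1.18e-05) and the term −3.13 (adjusted p = 0.000222).

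Dgat2, which makes triglyceride from diacylglycerol, was at 354, 248 and 268 TPM in intestine Veh and at 1265, 982 and 1078 TPM in intestine CORT, whereas in the liver it was at 243, 273 and 295 TPM in Veh and at 308, 280 and 311 TPM in CORT. The untreated tissues had like levels, and the liver groups overlapped. Slc47a1, an exporter of organic cations, rose by 1.91 in the intestine and Ggct, a glutathione-cycle enzyme, by 2.19. Clec4f, a lectin that marks Kupffer cells in the liver, was at 0.05, 0.15 and 0 TPM in intestine Veh and at 10.3, 5.31 and 7.42 TPM in intestine CORT, with 30 to 77.6 TPM over all liver libraries.

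Sprr2a2, a small proline-rich protein of epithelial barriers, was at 4221, 11467 and 4836 TPM in intestine Veh and at 631, 369 and 420 TPM in intestine CORT, and at most 2.22 TPM in the liver. Its change was −3.74 ± 0.34 (adjusted p = 0.00021); reads of the Sprr2a copies may be split between them. Lower in the intestine only were also Hpse, the heparanase, Slc4a7, a sodium bicarbonate cotransporter, Xdh, the xanthine dehydrogenase of purine breakdown, and Pyroxd2, with changes of −1.04, −1.73, −0.89 and −0.99. Xdh lost its intestine call without intestine Veh replicate 3 (adjusted p = 0.0553). Without intestine Veh replicates 2 and 3, Hpse lost its intestine call (0.0993) and its term (0.0711), and Xdh its term (0.129). Of the 89 genes lower, 27 were immunoglobulin variable segments. Over all 192 such segments tested, 66 were lower and 0 higher in the intestine, with a median log2 change of −1.55 there and −0.1 in the liver.

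The size of the class varied between fits. Leaving out 1 library at a time gave from 65 genes, without liver CORT replicate 1, to 222 genes, without intestine Veh replicate 1. With a pseudocount of 0.1 TPM the class held 63.

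The classes were then read by gene list. Of 35 glucocorticoid-induced genes, 17 were higher in the liver and 11 in the intestine, with none lower in either (0 of 35), and the median log2 change was 1.06 and 0.91, beside 0.03 and 0 over all genes tested. The genes higher in both were Fkbp5, Lcn2, Zbtb16, Tsc22d3 and Mertk. The term passed for 3 toward the liver (Cdkn1a, Gadd45b, Ampd3) and for 3 toward the intestine (Hif3a, Pdk4, Tfcp2l1). Pdk4, which blocks pyruvate oxidation, was at 0.53, 1.93 and 0.59 TPM in liver Veh and 2.98, 3.97 and 2.28 TPM in liver CORT, against 12, 8.8 and 18.4 TPM in intestine Veh and 135, 124 and 77.4 TPM in intestine CORT. Its term of −1.97 (adjusted p = 0.0416) reached an adjusted p of 0.089 without intestine CORT replicate 1. The terms of Gadd45b, Ampd3, Hif3a and Tfcp2l1 were also lost without 1 library, at up to 0.0981, while that of Cdkn1a was not. Tsc22d3 lost its liver call without liver CORT replicate 1 (0.0648) and its intestine call without intestine CORT replicate 2 (0.0822). Mertk lost its liver call without liver Veh replicate 1 (0.071). Nr3c1, the glucocorticoid receptor itself, was at 9.35 ± 1.26 and 9.33 ± 1.89 TPM in liver Veh and CORT and at 16.4 ± 1.66 and 15.9 ± 6.06 TPM in intestine Veh and CORT (SD, n = 3).

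Of 17 genes that bind or handle steroids, 0 were higher and 2 lower in the liver, and 1 was higher and 2 lower in the intestine. Beside Nr3c2, which was lower in both, Hsd3b5 passed as lower in the liver only (122 to 2.33 TPM, listed at 0 in the intestine). Hsd11b2, which inactivates corticosterone, passed as higher in the intestine only, from 4.08 ± 0.7 to 18.4 ± 3.36 TPM (SD, n = 3), with at most 0.07 TPM in the liver.

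Of 20 clock genes tested, 7 were higher and 3 lower in the liver, and 7 higher and 1 lower in the intestine. Nr1d1 was lower and Cry1, a repressor of the CLOCK complex, and Hlf, a PAR bZIP factor, were higher in both tissues. The intestine call of Cry1 was lost without intestine Veh replicate 3 (adjusted p = 0.0927) and without intestine Veh replicates 2 and 3 (0.371), which also ended that of Hlf (0.0582). Arntl, the CLOCK partner BMAL1, was at 0.76, 0.47 and 0.96 TPM in liver Veh and 5.54, 3.92 and 8.23 TPM in liver CORT, while intestine values overlapped between 2.96 and 6.66 TPM. Its term of 2 (adjusted p = 0.0308) reached an adjusted p of 0.0698 without intestine CORT replicate 3. Per3 was lower in the liver and had higher values in the intestine (changes −0.97 and 0.65), and its term (adjusted p = 0.0463) was lost without liver Veh replicate 3 (adjusted p = 0.101). The hour of tissue collection was not in the sources used here.

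Of 24 genes of cholesterol synthesis, 14 were lower in the liver and 4 in the intestine, with none higher (0 in each). The median change was −1.12 in the liver and −0.39 in the intestine. Beside Msmo1, Sc5d and Stard4 passed as lower in the liver only, with terms of −1.19 and −1.85, both lost without 1 library (adjusted p = 0.0809 without liver CORT replicate 1 and 0.0528 without intestine Veh replicate 3). For the other 7 genes lower in the liver and not called in the intestine, a difference between the tissues was not shown.

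Of 27 genes of fatty acid synthesis and lipid droplets, 11 were higher and 4 lower in the liver, and 4 higher and 0 lower in the intestine. Srebf1, the transcription factor that drives lipogenic genes, was at 90.9, 135 and 63.3 TPM in liver Veh and at 31.5, 36.4 and 17.8 TPM in liver CORT, against 43.7, 25.7 and 21.2 TPM in intestine Veh and 54.4, 72.4 and 77.4 TPM in intestine CORT. Its term was −2.91 (adjusted p = 0.00908), and the intestine change of 1.2 did not pass by itself (adjusted p = 0.0755). Without intestine Veh replicates 2 and 3 the term had an adjusted p of 0.0876. Fasn and Acly, its lipogenic targets, fell in the liver only (changes −1.44 and −1.2), and Plin5, a droplet coat protein, rose in the liver only (3.19). The terms of Acly and Fasn reached 0.106 without liver CORT replicate 1 and 0.0658 without intestine Veh replicate 3. That of Plin5 (adjusted p = 0.00113) was lost with a pseudocount of 0.1 TPM (adjusted p = 0.122).

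Of 26 genes of fatty acid oxidation and PPAR-alpha targets, 12 were higher in the liver and 6 in the intestine, with none lower (0 in each). Ppara, the receptor of the pathway, Acot1, Slc25a20, the carnitine carrier, and Pex11a, a peroxisome division factor, were higher in both, though the liver call of Ppara was lost without liver Veh replicate 3 (adjusted p = 0.172) and the intestine call of Slc25a20 without intestine CORT replicate 3 (0.125). Cyp4a14, an omega-hydroxylase, was higher in the liver at 741 against 3.6 TPM, and listed at 0 in the intestine.

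Of 33 drug-metabolizing P450s and their receptors tested, 9 were higher and 2 lower in the liver, and 4 higher and 3 lower in the intestine. Cyp3a11, a major drug oxidase, its receptor Nr1i2 (PXR), the electron donor Por, and Cyp3a13 were higher in both. Nr1i2 lost its liver call without liver CORT replicate 1 (adjusted p = 0.123) and its intestine call without intestine Veh replicate 2 (0.121), which also ended the intestine call of Cyp3a13 (0.0818). The intestine call of Por was lost without intestine Veh replicates 2 and 3 (0.0863). Cyp3a11 was at 648, 883 and 794 TPM in liver Veh and at 2874, 2033 and 2111 TPM in liver CORT, and at 329, 412 and 544 TPM in intestine Veh and at 1953, 2674 and 1850 TPM in intestine CORT. Cyp2b10, the classic target of CAR, was at 1.56, 0.6 and 6.51 TPM in liver Veh and at 1052, 778 and 1141 TPM in liver CORT, while the intestine held 575, 424 and 501 TPM in Veh and 1143, 1050 and 1064 TPM in CORT. The CORT libraries of both tissues lay between 778 and 1143 TPM although the liver controls were under 10 TPM, and the term was 7.16 (adjusted p = 0.000222). Cyp2c29 passed as lower in the intestine only (176 to 15.1 TPM), and its term (adjusted p = 0.0416) was lost without liver CORT replicate 1 (adjusted p = 0.0888). Reads of near-identical P450 copies may be shared.

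Of 42 interferon-stimulated genes tested, 7 were lower in the liver and 0 higher, and 1 (Usp18) was higher in the intestine and 0 lower. The term passed for 5, all lower in the liver direction (Ifit1, Ifit3, Irf9, Mx2, Rtp4), of which 4 met the rule for opposite changes. The median change was −0.47 in the liver, with 6 of 42 above 0, and 0.39 in the intestine, with 33 of 42 above 0. Most single members did not pass in either tissue, and of the 5 terms only that of Irf9 passed in each fit that left out 1 library.

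**Figure D4:**
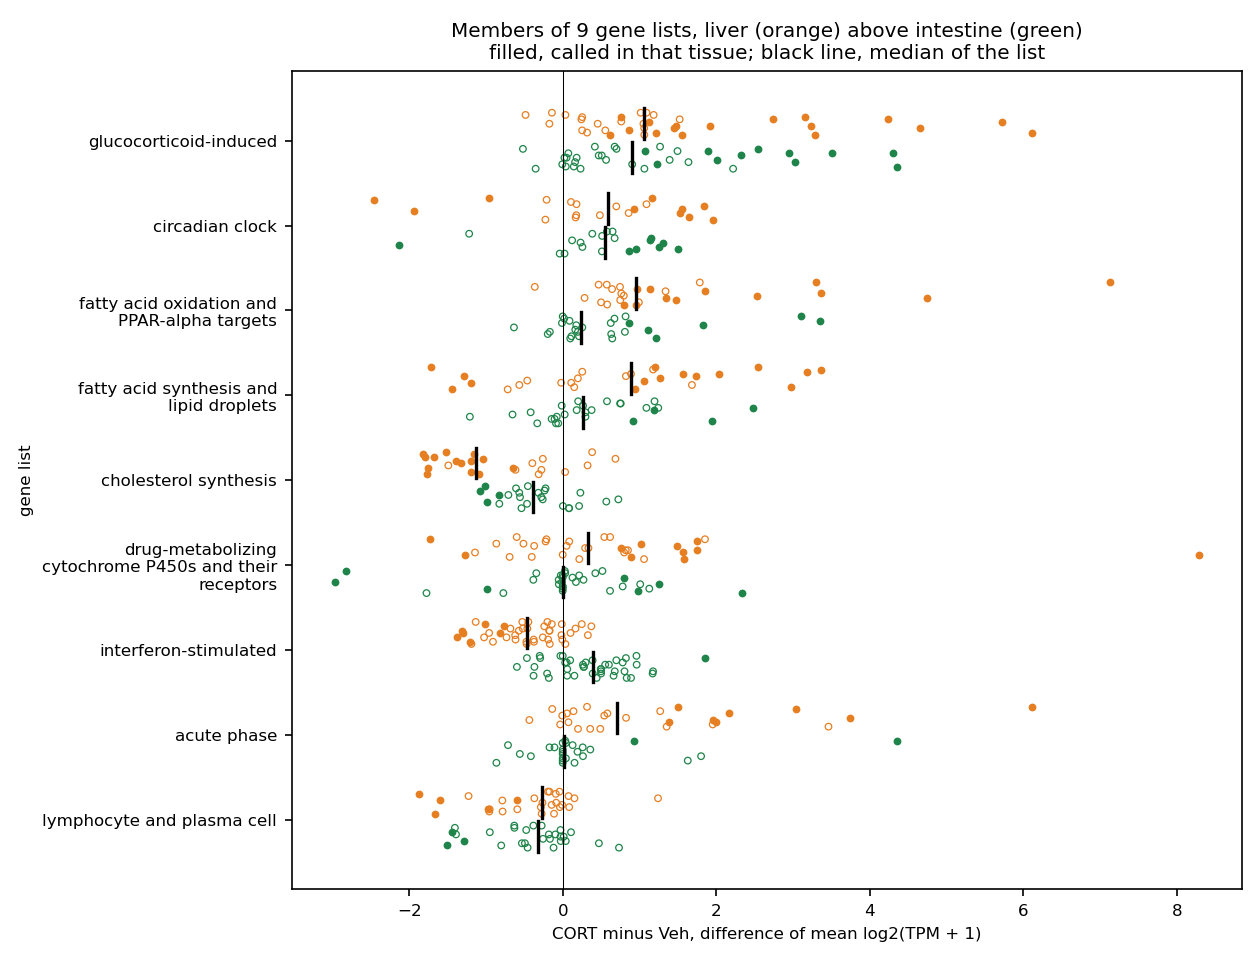
Members of 9 gene lists, with the difference between CORT and Veh of mean log2(TPM + 1) on the x axis and the lists on the y axis, liver in orange above intestine in green. Filled points passed the test in that tissue and black lines mark medians, which lie on the same side of 0 for the glucocorticoid-induced list (1.06 and 0.91) and on different sides for the interferon-stimulated list (−0.47 and 0.39).

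Counts for other lists follow, and no difference between the tissues is read from them. Of 26 acute phase genes, 8 were higher in the liver and 2 in the intestine, with Lcn2 higher in both and Serpina3m and Steap4 in the liver only. The term of Steap4 (adjusted p = 0.0455) was lost without liver CORT replicate 2 (0.0974), and that of Serpina3m with a pseudocount of 0.1 TPM (0.437). Of 18 immediate early genes, Egr1, Junb and Ier2 were lower in the liver and 0 were called in the intestine, with terms of −3.65 for Egr1 and −1.04 for Ier2 that passed (adjusted p = 0.0497 and 0.037) but were lost without liver CORT replicate 1 (0.113) and intestine Veh replicate 2 (0.0829). Of 23 antigen presentation genes, 2 were lower in the liver, and 3 were lower and 1 higher in the intestine. Of 30 DNA replication genes, 5 were lower in the intestine and 0 higher, against 2 lower and 2 higher in the liver. Of 28 lymphocyte and plasma cell genes, 5 were lower in the liver and 3 in the intestine, with 0 higher in each. The plasma cell gene Jchain was at 878 TPM in intestine Veh and at 327 TPM in intestine CORT, a change lost without intestine Veh replicates 2 and 3 (adjusted p = 0.21).

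Groups did not overlap for 27.5% of all genes tested in the liver and for 24.9% in the intestine, so a gene described only by groups that stand apart is a common sight in these data. With 3 libraries a group, intervals of the term were wide. Their median width was 1.12 on the log2 scale for the genes expressed in both tissues, and 56.6% of all genes tested had an interval within 1 log2 unit either way.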

How the data were processed

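Total RNA was extracted with TRIzol from 12 frozen tissue pieces and sequenced from TruSeq libraries. The authors deposited TPM per gene and library; the submitters' processing notes name HISAT2, StringTie, RSEM and GRCm39 without versions. Read depth cannot be recovered from TPM and stays unknown; sums ran from 983327 to 997319 TPM. With 3 libraries a group, p-values measure the spread between these libraries.

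The tables were joined on gene identifier. Genes with a mean of 1 TPM or more in any group were kept, log2(TPM + 1) was taken, and 1 limma fit (version 3.58.1, R 4.3.3) with 4 group means and a trended prior gave both treatment contrasts and the treatment by tissue term, with Benjamini-Hochberg adjustment over 14806 genes. Calls were limited to changes of more than 1.5-fold with an adjusted p not above 0.05. The deposited values were not counts, so a count model was not used. The scripts were tested on simulated data.

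The genes named, leaving out predicted-gene names, were Fkbp5, Fgf1, the 8 shared higher and 6 shared lower genes with the largest smaller change, the 8 opposite genes and the 5 higher and 5 lower genes of each single-tissue class with the smallest p of the term among genes reaching 1 TPM in the other tissue, the 5 genes nearest Fkbp5 (predicted genes included), and called members of 25 gene lists; Chd9, Cyp27a1, Serinc3, Hsd3b2, Apol9a, Apol9b and A730063M14Rik were named after their values were seen. Members and lists were chosen with earlier results of these data known. Alternatives were other pseudocounts, filters, scalings, weights, acinar genes removed, separate tissues, a replicate block, libraries left out in turn, and libraries left out together. The result for 1 list member is not reported here.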

Additional observations from a re-analysis of the deposited data

Results flagged for a closer look

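A difference between the tissues in the response to CORT was found for 533 genes by the treatment by tissue term, which is the test of that difference itself. Of these genes, 326 reached 1 TPM in both tissues, and for the rest 1 tissue stayed under that limit. The values that follow are this term, the log2 change in the liver minus that in the intestine. Among genes with opposite changes it was 1.99 for Galnt2, −2.18 for Hsd3b3, 1.64 for Uhrf1, −2.06 for Srd5a2, 2.95 for Wfdc2, 1.84 for Cnnm2, 2.19 for Maf and 1.94 for Plpp1. Among genes that met the rule for liver only it was 2.27 for Fgf1, 5.25 for Cdkn1a, 2.28 for Aifm2, 1.78 for Trp53inp2, 2.27 for Tacc2, −2.33 for Msmo1, −2.52 for Apol7a, −1.44 for Nrp1, −1.68 for Ncald and −1.95 for Dclk3. Among genes that changed in the intestine only it was −3.13 for Acox2, −1.84 for Slc47a1, −1.79 for Dgat2, −2.46 for Ggct, −3.0 for Clec4f, 4.10 for Sprr2a2, 1.35 for Hpse, 1.95 for Slc4a7, 1.28 for Xdh and 1.28 for Pyroxd2. These genes were chosen for the size or p of the term, so the values describe them.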

How the results depend on the processing

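None of the 419 gene calls followed through the alternatives reversed its direction. Among the genes passing in the intestine, the share higher went from 49.8% to 65% with 1 TPM required in each tissue. With each tissue fitted alone, 810 genes were called in the liver and 292 in the intestine, with 52 shared higher, 7 shared lower, 2 opposite with a call in both and 105 intestine only. Without intestine Veh replicates 2 and 3, the counts were 343 in the intestine, 301 for the term, 22 shared higher, 7 shared lower and 93 liver only. Without liver Veh replicate 2 and liver CORT replicate 3, chosen after seeing the data, they were 11 shared lower and 91 intestine only. A pseudocount of 0.1 TPM gave 428 in the intestine and 63 intestine only. No filter gave 336 for the term, 12 shared lower, 4 opposite with a call in both, 25 opposite by the wider rule, 190 liver only and 99 intestine only. A filter of 1 TPM in each tissue gave 334 in the intestine, 315 for the term and 50 intestine only. Median-ratio scaling gave 13 opposite with a call in both. An unadjusted p under 0.05 gave 1495 in the intestine, 2139 for the term, 190 shared higher, 75 shared lower, 47 opposite with a call in both, 918 liver only and 634 intestine only. The cause of these shifts was not tested, beyond fewer libraries or genes where these were left out.

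Leaving out 1 library at a time gave 859 to 1404 calls in the liver, 387 to 676 in the intestine, 289 to 626 for the term, 52 to 94 shared higher, 10 to 23 shared lower, 4 to 11 opposite with a call in both, 26 to 43 opposite by the wider rule, 163 to 394 liver only and 65 to 222 intestine only. The lowest counts came without liver CORT replicate 1 for the liver, the term and intestine only, and without intestine Veh replicate 3 for the intestine and liver only. Of 92 calls of genes named by the rule, 81 held in each of these fits and 11 did not.

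Deviations from the group means had correlations from −0.162 to 0.136 between liver and intestine libraries of the same treatment and number. With 3 libraries a group this cannot decide whether they came from 1 mouse, and the main fit used no pairing. With the replicate block, 98 genes were intestine only, and with treatment and number in 1 term 210 genes passed the treatment by tissue term, 193 of them among the 533.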

Other observations

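The remaining gene lists are given by their counts, beside 8.69% of all genes called in the liver and 4.46% in the intestine. Of 27 genes of gluconeogenesis and amino acid catabolism, 5 were higher and 2 lower in the liver and 1 was higher in the intestine. Of 16 genes of the FGF and EGF families, 3 were higher and 3 lower in the liver and 1 (Nrg4) was higher in the intestine; Fgfr1, an FGF receptor, was lower in the liver only, with a term of −1.24. Of 22 genes of insulin and IGF signaling, 3 were higher and 1 lower in the liver and 0 were called in the intestine. Of 17 cell cycle inhibitors, 5 were higher in the liver, and 1 was higher and 1 lower in the intestine. Of 24 mitosis genes, 0 were called in the liver and 1 was higher in the intestine.

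Of 27 genes of the unfolded protein response, 3 were higher and 1 lower in the liver and 0 were called in the intestine, and of 18 heat shock genes 2 were higher in the liver and 0 were called in the intestine. Of 20 macrophage genes, 2 were higher in each tissue, with Cd163, a scavenger receptor for haemoglobin, higher in both (2.39 and 1.6). Of 9 genes of metallothionein and zinc transport, 3 were higher in the liver and 2 in the intestine, with Slc39a14, a zinc importer, higher in both (1.29 and 0.68). Of 22 genes of glutathione and NRF2 targets, 1 was higher and 3 lower in the liver, and 3 were higher and 3 lower in the intestine. Of 19 genes of sodium, chloride and water transport, 3 were higher and 1 lower in the liver, and 1 was higher and 1 lower in the intestine. Of 20 amino acid and sugar transporters, 1 was lower in the liver and 2 in the intestine.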
